A study of Rattus norvegicus with 8 samples.

Results

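The genes described here encode the nuclear-encoded subunits of the mitochondrial respiratory chain and of ATP synthase, taken complex by complex. They were chosen by symbol: names starting with Ndufa, Ndufb, Ndufc, Ndufs or Ndufv and a digit, Sdha to Sdhd, names starting with Uqcr or Cyc1, names starting with Cox4 to Cox8, and names starting with Atp5. The rule itself reads the annotation and no measured value. It found 89 of the 31042 probe sets tested, which stand for 80 of the 14217 genes with a probe set of a single symbol. Complex I had 35 genes on 38 probe sets, complex II had 4 genes on 5, complex III had 8 genes on 9, complex IV had 17 genes on 17 and complex V had 16 genes on 20. A further 9 probe sets of these families carried several symbols and name no gene here. Both cytochrome c probe sets were among those 9, so the mobile carrier between complexes III and IV has 0 genes here. The symbols also take in Cox6c-ps1, a pseudogene, and Ndufa4, which was named for complex I and is now counted with complex IV.

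Complex I (NADH dehydrogenase) and complex II (succinate dehydrogenase) pass electrons to ubiquinone, complex III (cytochrome bc1) passes them on to cytochrome c, and complex IV (cytochrome c oxidase) passes them to oxygen. Complexes I, III and IV pump protons, and complex V (ATP synthase) uses the returning protons to make ATP. Most subunits are encoded in the nucleus, and their mRNA levels in muscle are known to follow mitochondrial content, fibre type and endurance training.

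Each of the 8 arrays held RNA of the epitrochlearis, a small muscle of the rat forelimb, from a male Sprague-Dawley rat labelled as 6 weeks old. All rats had 3 days of swimming practice, a diet restricted to 5 g on the day before, and a 2 h swim in a barrel that 4 animals shared, and all were then gavaged with a solution of 44 kJ, about 15% of daily energy. The 4 WPH rats received carbohydrate with whey protein hydrolysate, which is whey protein cut into peptides, and the 4 AAM rats received carbohydrate with an amino acid mixture. The series was set up to compare these protein sources at an identical amino acid composition. No unfed and no unexercised group was analysed here, so the values below compare 1 meal with the other and say nothing of exercise or of feeding. The sources used here do not give the time of sampling, the barrel of each rat or the array batch.

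Transcription factors with known roles in genes of oxidative phosphorylation are NRF-1 (nuclear respiratory factor 1), GABP (also called NRF-2), YY1 and the estrogen-related receptors. RefSeq promoter sequences of the GRCr8 assembly, 300 bases long from 250 bases before the start that the promoter table uses to 50 bases after it, matched 71 of the 80 genes. They were searched on both strands for GCGCA and GCGC with 1 base of any kind between them (NRF-1), CCGGAAGTG (GABP), AAGATGGCG (YY1) and TNAAGGTCA (estrogen-related receptor). No match to 1 of these motifs overlapped a match to another in the promoters printed below. The NRF-1 letters stood in 13 of the 71 promoters (18.3%), against 4.25% of all 33469 promoters in the table and 7.88% of the 13192 promoters of measured genes. The YY1 letters stood in 10 (14.1%), against 1.73% of all promoters and 2.93% of those of measured genes. The GABP letters stood in 3 (4.23%), against 1.89% and 3.32%, and the estrogen-related receptor letters also in 3 (4.23%), against 1.2% and 0.758%. At least 1 of the 4 motifs was present in 25 (35.2%), against 8.5% of all promoters and 13.8% of those of measured genes. By complex, 12 of 33 promoters of complex I, 2 of 4 of complex II, 3 of 6 of complex III, 1 of 13 of complex IV and 7 of 15 of complex V held 1. A match says that these letters are present in the window and no more.

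The promoters below show where these letters stand. The first 5 were picked among genes that hold a motif, so nothing about a link between motif and expression can be read from them. No motif was found in 46 of the 71 promoters, and Ndufv1, Ndufs8 and Uqcrc2, which moved with the other members just as closely, are among those. Ndufb4, Sdhd, Uqcrc1, Cox5b and Atp5f1c, 1 gene of each complex, moved together across the arrays, and Cox5a is the 1 gene whose groups had no overlap. Capitals mark the motif letters found. Ndufb4 holds NRF-1 and estrogen-related receptor letters, Sdhd holds estrogen-related receptor letters on the opposite strand, Uqcrc1 holds NRF-1 letters on the opposite strand and YY1 letters, Cox5b holds GABP letters and Atp5f1c holds NRF-1 letters. The Cox5a window held none of the 4 motifs. In GRCr8 the windows are chr11:76568928-76569227 (plus strand), chr8:59850592-59850891 (minus strand), chr8:118467973-118468272 (plus strand), chr9:46417587-46417886 (plus strand), chr17:73333435-73333734 (plus strand) and chr8:66818034-66818333 (plus strand), in the order printed. For Cox5b and Atp5f1c the start used lies downstream of the start of the gene in the gene table (46417837 against 46417735 for Cox5b, and 73333685 against 73333584 for Atp5f1c).
Ndufb4: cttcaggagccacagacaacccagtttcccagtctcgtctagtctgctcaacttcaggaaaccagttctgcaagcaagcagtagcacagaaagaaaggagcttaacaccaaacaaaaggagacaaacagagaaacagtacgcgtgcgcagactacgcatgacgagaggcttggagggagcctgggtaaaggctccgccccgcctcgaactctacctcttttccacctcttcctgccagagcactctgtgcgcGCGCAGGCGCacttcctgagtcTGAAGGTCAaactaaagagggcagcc
Sdhd: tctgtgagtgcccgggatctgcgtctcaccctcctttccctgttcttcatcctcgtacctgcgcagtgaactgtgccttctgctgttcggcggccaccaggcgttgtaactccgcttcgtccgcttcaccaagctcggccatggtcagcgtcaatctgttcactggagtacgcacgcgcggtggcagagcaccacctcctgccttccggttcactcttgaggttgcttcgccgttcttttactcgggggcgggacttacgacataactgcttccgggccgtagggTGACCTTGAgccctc
Uqcrc1: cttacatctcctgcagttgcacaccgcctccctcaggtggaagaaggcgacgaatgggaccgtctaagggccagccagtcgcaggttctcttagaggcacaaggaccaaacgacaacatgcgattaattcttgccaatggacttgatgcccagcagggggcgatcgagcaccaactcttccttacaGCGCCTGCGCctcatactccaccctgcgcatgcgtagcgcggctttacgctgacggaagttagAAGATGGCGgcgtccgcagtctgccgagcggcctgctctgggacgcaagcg
Cox5b: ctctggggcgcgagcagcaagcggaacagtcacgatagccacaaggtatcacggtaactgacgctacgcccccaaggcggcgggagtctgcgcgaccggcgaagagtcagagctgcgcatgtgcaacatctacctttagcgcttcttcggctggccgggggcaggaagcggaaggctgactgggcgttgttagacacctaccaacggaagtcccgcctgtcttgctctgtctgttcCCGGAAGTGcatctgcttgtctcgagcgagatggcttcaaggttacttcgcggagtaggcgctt
Atp5f1c: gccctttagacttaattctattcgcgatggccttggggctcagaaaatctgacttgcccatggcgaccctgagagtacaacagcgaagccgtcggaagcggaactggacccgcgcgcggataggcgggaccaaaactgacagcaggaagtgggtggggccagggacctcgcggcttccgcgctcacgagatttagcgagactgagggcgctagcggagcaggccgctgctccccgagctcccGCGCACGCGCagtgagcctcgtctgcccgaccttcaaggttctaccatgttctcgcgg
Cox5a: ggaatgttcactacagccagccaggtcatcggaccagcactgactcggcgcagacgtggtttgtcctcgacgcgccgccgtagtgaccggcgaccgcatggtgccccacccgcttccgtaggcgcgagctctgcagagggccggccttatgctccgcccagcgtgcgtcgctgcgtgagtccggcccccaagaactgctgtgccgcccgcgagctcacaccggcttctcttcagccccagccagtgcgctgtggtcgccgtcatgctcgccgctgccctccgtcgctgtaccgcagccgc

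The deposited values ran from 5.28 to 14.2 on a log2-like scale, the median of each array was 6.66, and 0 pairs of arrays held identical values. Differences between arrays were minute for most genes, with a median range over the arrays of 15.9 millionths of a deposited unit over all genes. Ranges reached 6160 millionths among the members and 604000 millionths among all genes. Values are given below as deviations of an array from the mean of the 8 arrays, in millionths of a deposited unit, and none is read as a fold. The standardized difference is the WPH mean minus the AAM mean over the SD pooled from both groups, and its interval is at 95%. A z-score is the deviation of an array divided by the SD over the 8 arrays, and where a gene had several probe sets it is represented by the one of highest mean level. All 11 of the measured fast fibre markers and all 9 of the slow fibre markers had mean levels at or above the median of all probe sets, and so did 76 of the 80 subunit genes. So did 7 of 11 interferon response genes, 5 of 9 adipocyte markers and 4 of 7 Schwann cell and nerve markers. Among erythrocyte markers 3 of 5 did, and among skin and epithelium markers 3 of 9. The number of arrays, 4 per group, limits the precision of every value.

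Between the meals, no subunit gene passed the test. At an adjusted p below 0.05 in limma with Benjamini-Hochberg adjustment, 0 of 89 member probe sets and 0 of 31042 probe sets in all (0.0%) were called, and the smallest adjusted p among the members was 1.0. At an unadjusted limma p below 0.05 there were 3 of 89 (3.37%), against 3.58% of all probe sets. Of these, 1 was higher after WPH (1.12%, against 1.71% of all) and 2 were lower (2.25%, against 1.86% of all). Groups without overlap, with every array of 1 meal above every array of the other, were found for 1 of 89 member probe sets (1.12%), against 2.23% of all probe sets. All of these shares lie near the background. Leaving out 1 array or both AAM 1 and AAM 3 left 1 to 3 members under 0.05, where the share of all probe sets was 3.79%, 3.53%, 4.44% and 4.39% without AAM 1 to 4, 3.27%, 3.79%, 3.32% and 3.55% without WPH 1 to 4, and 3.66% without both.

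Over the 80 genes, 28 had a higher mean after WPH and 52 a lower one, and the median standardized difference was -0.098, against 6556 higher, 7661 lower and a median of -0.058 over all 14217 genes. In complex I, 15 genes were higher and 20 lower, with a median of -0.044. All 4 genes of complex II were lower, with a median of -0.27. Complex III had 4 higher and 4 lower (median -0.047), complex IV 5 higher and 12 lower (median -0.18) and complex V 4 higher and 12 lower (median -0.054). The count of higher genes rested on single arrays. It was 8 of 80 without AAM 1, 65 of 80 without AAM 3, 46 of 80 without WPH 1 and 42 of 80 without both AAM 1 and AAM 3, and the median standardized difference was -0.66, 0.57, 0.019 and 0.058 in these 4 settings. Centring each array on its median left 10 of 80 genes higher.

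**Figure D1:**
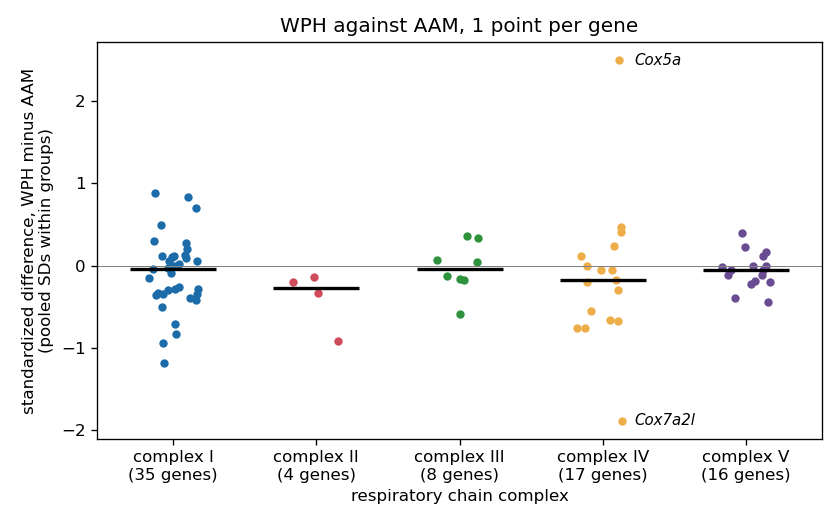
Standardized difference, WPH minus AAM in pooled SD units, for each of the 80 genes (points) by complex, with the median of each complex as a line. Points lie on both sides of 0 in each complex but complex II, from -1.89 for Cox7a2l to 2.5 for Cox5a, and the counts on each side move when AAM 1, AAM 3 or WPH 1 is left out or the arrays are centred on their medians.

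Cox5a, which encodes a subunit on the matrix side of cytochrome c oxidase, was the gene whose groups did not overlap. Its deviations were 25.8, 16.4, 28.2 and 11.6 millionths on WPH 1 to 4, against -52.6, -5.82, -15.9 and -7.71 millionths on AAM 1 to 4. Every WPH array was above every AAM array, and AAM 1 was the lowest. The means were 20.5 ± 7.81 millionths in the WPH group and -20.5 ± 21.8 millionths in the AAM group (SD, n = 4 each). The difference was 41.0 ± 11.6 millionths (SE) and the standardized difference 2.5 (0.5 to 4.41). The limma p was 0.00869 before adjustment and 1.0 after it, and the exact two-sided permutation p was 0.0286, the smallest that the 35 splits of 8 arrays allow. The standardized difference was 4.37 without AAM 1 and 4.01 without both AAM 1 and AAM 3, but 0.94 when arrays were centred on their medians and -1.07 after quantile normalization, so its direction depended on the scaling. The gene lies on chromosome 8, 66818284 to 66829691 in GRCr8. A probe set annotated both to Cox5a and to another symbol, and so not counted here, had -0.0563, 0.324, -0.146 and -0.326 millionths on WPH 1 to 4, against -0.166, 0.204, 0.354 and -0.186 millionths on AAM 1 to 4. Its groups overlapped and its standardized difference was -0.38 (limma p 0.79 before adjustment), of the opposite sign to the probe set that stands for Cox5a.

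Cox7a2l, known from mouse work as a factor that joins complexes III and IV into supercomplexes, had -15.7, -7.63, 4.4 and -4.14 millionths on WPH 1 to 4, against 3.28, 8.03, 7.39 and 4.41 millionths on AAM 1 to 4. The groups overlapped only through WPH 3, which lay just above AAM 1. The means were -5.78 ± 8.34 millionths in the WPH group and 5.77 ± 2.29 millionths in the AAM group (SD, n = 4 each), a standardized difference of -1.89 (-3.58 to -0.11). The limma p was 0.0291 before adjustment and 1.0 after it, and the exact two-sided permutation p was 0.0571. The standardized difference was -3.6 without WPH 3 and -0.62 when arrays were centred on their medians. The remaining probe set under an unadjusted 0.05 was the dimmer of 2 for Atp5me, a small membrane subunit of ATP synthase. It gave -1.86 (-3.54 to -0.09) with a limma p of 0.0325, an adjusted p of 1.0 and an exact permutation p of 0.0571. The brighter probe set of Atp5me gave 0.22 (-1.18 to 1.6), so the probe sets of this gene disagreed in sign.

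**Figure D2:**
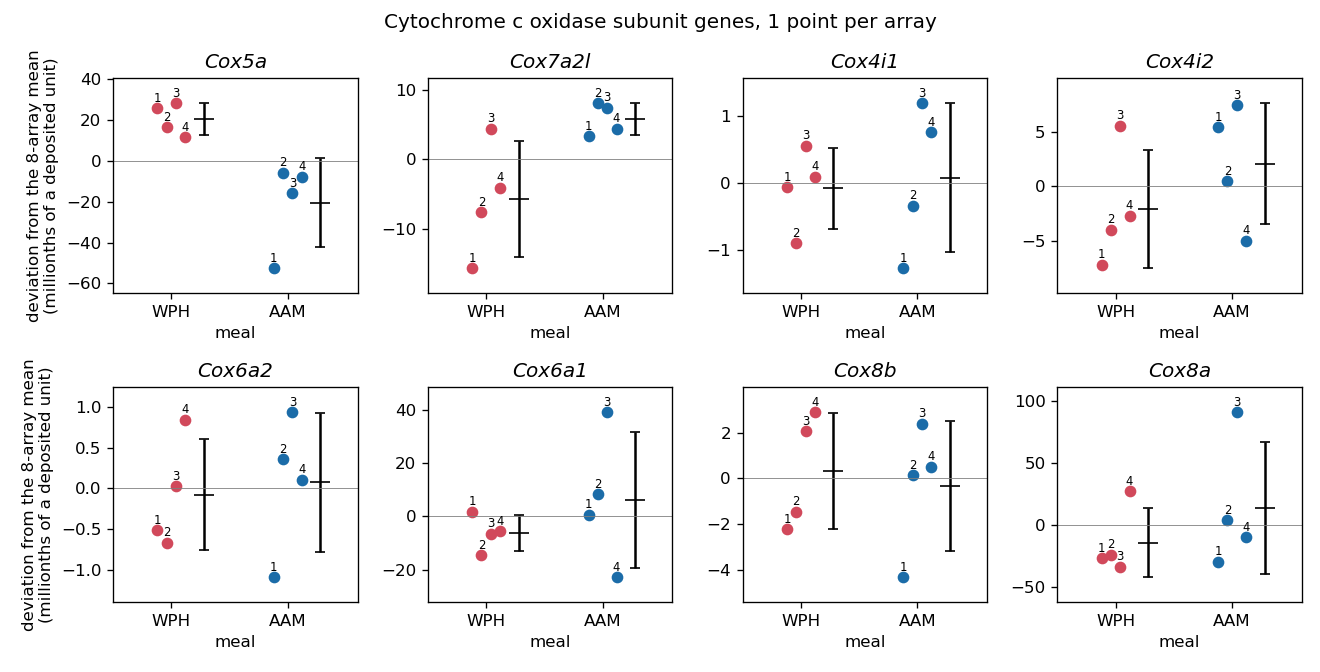
Deviation of each array from the 8-array mean, in millionths of a deposited unit, for the complex IV genes drawn, with WPH arrays left of AAM arrays. For Cox5a the WPH points (11.6 to 28.2) lie above the AAM points (-52.6 to -5.82), an order that quantile normalization turned in the mean, and for the other genes drawn the groups overlap.

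The subunit genes moved together from array to array, and the arrays at both ends belonged to the AAM group. AAM 3 was the highest of the 8 arrays for 66 of 80 genes (82.5%), against 2643 of all 14217 genes (18.6%). AAM 1 was the lowest for 59 of 80 (73.8%), against 15.6% of all genes, and 50 of 80 (62.5%) had both, against 5.34%. AAM 3 was above AAM 1 for 80 of 80 genes, against 49.6% of all genes, but for 26 of 80 (9.04% of all genes) when arrays were centred on their medians and for 7 of the 19 members that still varied after quantile normalization (17.4% of all genes that varied). Median centring moved AAM 3 by more than most members ranged. The median of AAM 3 was 54.1 millionths above the mean of the array medians, the median range of a member over the arrays was 22.0 millionths, and the centring made AAM 3 the lowest array for 12138 of the 14217 genes. Among the 14 members with a range over 200 millionths, AAM 3 stayed above AAM 1 for 13 under median centring. After quantile normalization AAM 3 lay above AAM 1 for 4 of the 5 of these that still varied. The 14 were picked by range, and as deposited AAM 3 was highest for 13 and AAM 1 lowest for 12. The medians of AAM 3 and AAM 1 lay at 54.1 and -15.5 millionths from the mean of the array medians. Centring by so little cannot turn a gap of over 200 millionths. The count under median centring therefore says nothing of how firm the order is.

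The mean z-score of the 80 genes was -0.37, -0.22, 0.19 and 0.18 on WPH 1 to 4, against -1.24, 0.12, 1.56 and -0.21 on AAM 1 to 4. All 4 WPH arrays lay between AAM 1 and AAM 3. The group means were -0.06 ± 0.28 for WPH and 0.06 ± 1.16 for AAM (SD, n = 4 each). The mean z-score of all genes stayed between -0.07 and 0.04 on every array. The SD within the AAM arrays was larger than within the WPH arrays for 74 of 80 subunit genes (92.5%), against 61.5% of all genes. The labels give no reason to set AAM 1 or AAM 3 apart from the other rats.

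**Figure D3:**
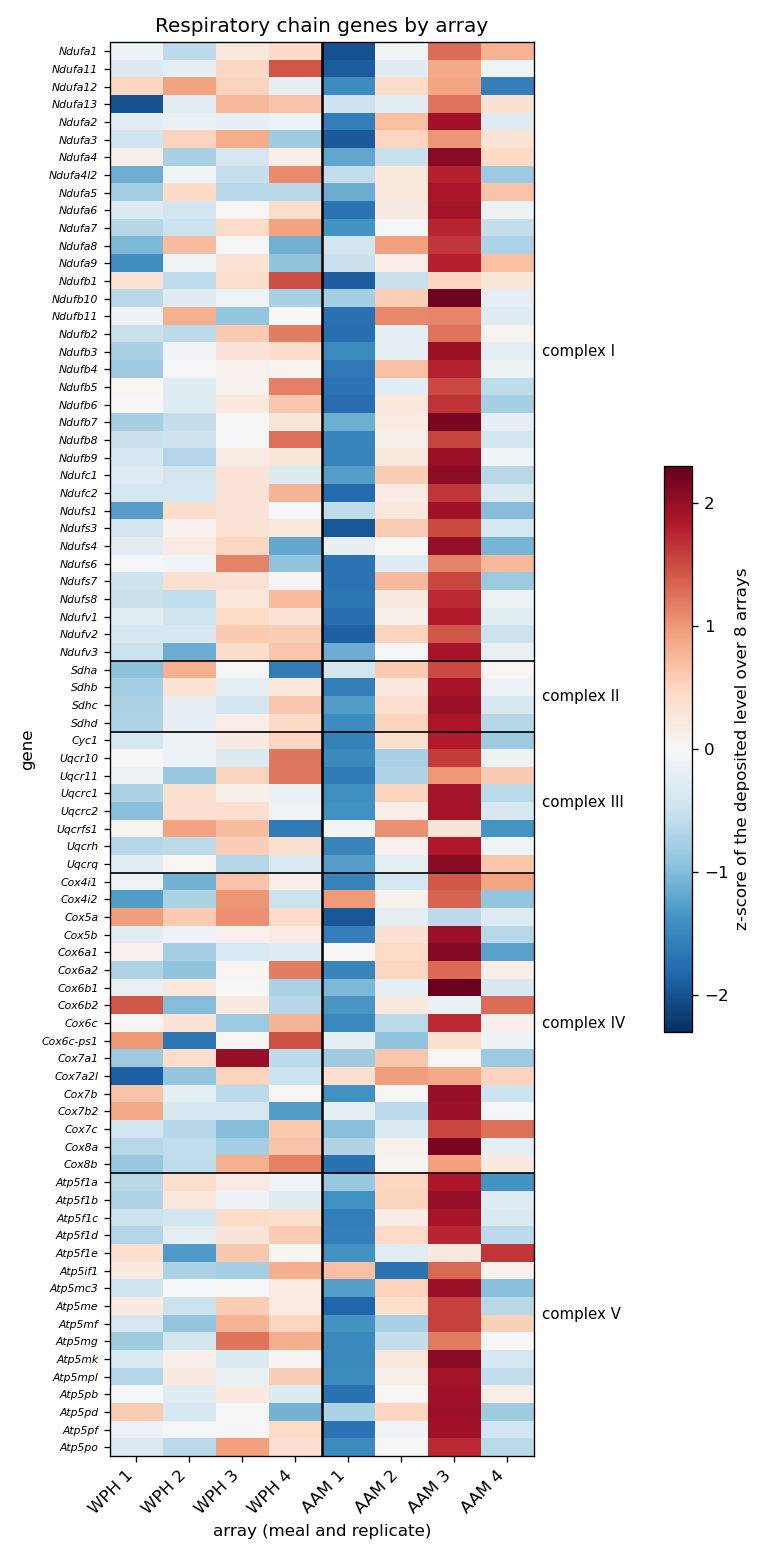
Z-score over the 8 arrays (colour) for each of the 80 subunit genes, grouped by complex, with WPH 1 to 4 left of AAM 1 to 4. The AAM 3 column is the highest for 66 genes and the AAM 1 column the lowest for 59, on the values as deposited. Under median centring AAM 3 lay above AAM 1 for 26 of the 80 genes.

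In complex I, AAM 3 was the highest array for 31 of 35 genes and AAM 1 the lowest for 27. The mean z-score was -0.48, -0.17, 0.22 and 0.23 on WPH 1 to 4, against -1.39, 0.20, 1.61 and -0.23 on AAM 1 to 4. Ndufv1, the subunit that binds NADH, had -1.04, -1.81, 1.86 and 1.20 millionths on WPH 1 to 4, against -6.98, 0.447, 7.32 and -0.983 millionths on AAM 1 to 4. The WPH arrays lay inside the AAM range, and the standardized difference was 0.02 (-1.36 to 1.41). The other measured genes of the catalytic core showed the same array order at the ends, with AAM 3 highest for Ndufs1, Ndufs3, Ndufs7, Ndufs8 and Ndufv2 and AAM 1 lowest for each of these but Ndufs1, whose lowest array was WPH 1. Their standardized differences were -0.28 for Ndufs1, 0.12 for Ndufs3, 0.12 for Ndufs7, -0.04 for Ndufs8 and 0.20 for Ndufv2. Ndufs1, Ndufv1 and Ndufv2 belong to the module that takes electrons from NADH, and Ndufs3, Ndufs7 and Ndufs8 to the module that hands them to ubiquinone.

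The accessory subunits of complex I with the largest differences were Ndufa12 (0.88), Ndufb1 (0.84) and Ndufa11 (0.70) on the higher side and Ndufa9 (-1.19), Ndufb10 (-0.94) and Ndufa5 (-0.84) on the lower side. Ndufa9, an accessory subunit near the ubiquinone site, had -1.57, -0.0975, 0.363 and -1.03 millionths on WPH 1 to 4, against -0.577, 0.163, 1.97 and 0.772 millionths on AAM 1 to 4. The groups overlapped, the interval of its standardized difference was -2.68 to 0.39, and its limma p was 0.161 before adjustment. A dimmer probe set of Ndufa9 gave 0.12, of the opposite sign, with AAM 4 highest. Ndufa12 had 3.15, 6.12, 3.46 and -1.43 millionths on WPH 1 to 4, against -9.69, 2.83, 6.09 and -10.5 millionths on AAM 1 to 4, and its interval was -0.62 to 2.32. It is 1 of the 4 complex I genes that were not highest on AAM 3, with Ndufa11 and Ndufb1 (highest on WPH 4) and Ndufs6 (highest on WPH 3). The largest range of any member, 6160 millionths, was that of Ndufc2, a membrane arm subunit picked here for that range after its values were seen. It had -701, -747, 529 and 1410 millionths on WPH 1 to 4, against -3200, 346, 2960 and -589 millionths on AAM 1 to 4, and WPH 4 was the highest of the WPH arrays. Its standardized difference was 0.13 (-1.27 to 1.51). Over complex I the ranges ran from 1.74 to 6160 millionths.

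Complex II, which also serves the tricarboxylic acid cycle, had the lowest median difference and the fewest genes. Sdha, the flavoprotein that oxidises succinate, had -1.95, 1.70, -0.0675 and -3.31 millionths on WPH 1 to 4, against -0.897, 1.27, 3.15 and 0.0925 millionths on AAM 1 to 4. WPH 4 was lowest and AAM 3 highest, and the standardized difference was -0.92 (-2.36 to 0.59). Sdhb, the iron-sulphur subunit, had -8.13, 3.19, -2.06 and 2.62 millionths on WPH 1 to 4, against -16.4, 2.35, 19.6 and -1.14 millionths on AAM 1 to 4. Its WPH arrays lay inside the AAM range, and the standardized difference was -0.20 (-1.58 to 1.20). The membrane anchors gave -0.34 for Sdhc and -0.14 for Sdhd, both with AAM 3 highest and AAM 1 lowest. A second probe set of Sdhd gave -0.19 with the same highest and lowest arrays. The shared direction rested on single arrays: 3 of the 4 genes were higher after WPH without AAM 3, 2 without WPH 1 and 1 without AAM 2.

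In complex III, AAM 3 was the highest array for 6 of 8 genes and AAM 1 the lowest for 7. Cyc1, the cytochrome c1 that reduces cytochrome c, had -62.2, -20.9, 32.2 and 75.3 millionths on WPH 1 to 4, against -241, 59.8, 284 and -127 millionths on AAM 1 to 4. The WPH arrays again lay inside the AAM range, with a standardized difference of 0.07 (-1.32 to 1.46). The core proteins gave -0.18 for Uqcrc1 and -0.13 for Uqcrc2, whose dimmer probe set gave 0.14. Among the small subunits Uqcr10 gave 0.36 and Uqcr11 0.34, while Uqcrq gave -0.59 (-1.99 to 0.85) and Uqcrh -0.16. Uqcrfs1, the Rieske iron-sulphur protein that passes electrons to Cyc1, departed from the rest of its complex. It had 0.325, 4.07, 3.18 and -7.21 millionths on WPH 1 to 4, against -0.315, 4.64, 1.30 and -6.00 millionths on AAM 1 to 4. The fourth array of each group was low and the second high, the groups overlapped, and the standardized difference was 0.04.

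Complex IV held fewer genes with the common array pattern: AAM 3 was the highest array for 11 of 17 and AAM 1 the lowest for 9. The mean z-score was -0.13, -0.47, 0.15 and 0.12 on WPH 1 to 4, against -0.88, 0.00, 1.25 and -0.04 on AAM 1 to 4, the narrowest spread over the AAM arrays of the 5 complexes (SD 0.88, against 1.18 to 1.27 in the others). The 17 include Cox4i2, Cox6b2 and Cox7b2, which are 3 of the 4 members with a mean level below the median of all probe sets. They also include the pseudogene Cox6c-ps1, and the spread was not recomputed without these genes. Several complex IV subunits come as isoforms, of which Cox6a2, Cox7a1 and Cox8b are known as the heart and muscle forms. Cox6a2 had -0.514, -0.664, 0.0262 and 0.846 millionths on WPH 1 to 4, against -1.09, 0.356, 0.936 and 0.106 millionths on AAM 1 to 4. Its ends were AAM 1 and AAM 3, with WPH 4 close below AAM 3, and its standardized difference was -0.20 (-1.58 to 1.20). Cox6a1, the form of most other tissues, had 1.80, -14.7, -6.57 and -5.67 millionths on WPH 1 to 4, against 0.490, 8.35, 39.2 and -22.9 millionths on AAM 1 to 4. AAM 3 stood alone at the top, AAM 4 was lowest, and the standardized difference was -0.67 (-2.08 to 0.79).

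Cox7a1, the muscle form of subunit 7a, had -117, 58.5, 282 and -86.1 millionths on WPH 1 to 4, against -115, 88.9, 6.29 and -118 millionths on AAM 1 to 4. WPH 3 was the highest array and AAM 4 the lowest, closely followed by WPH 1 and AAM 1, and the standardized difference was 0.47 (-0.96 to 1.86). Cox8b, the muscle form of subunit 8, gave 0.24 with WPH 4 highest and AAM 1 lowest, and Cox8a gave -0.66 with AAM 3 highest. The standardized difference was -0.18 for Cox4i1 and -0.76 for Cox4i2, the isoform known from lung and hypoxic cells. It was -0.30 for Cox6b1 and -0.01 for Cox6b2, and -0.06 for Cox7b and -0.55 for Cox7b2, the second of each pair being known from testis. Cox7c, a small structural subunit, gave -0.76 (-2.18 to 0.72). Ndufa4 and its paralogue Ndufa4l2, known as a hypoxia-induced gene, gave -0.39 and -0.30. The pseudogene Cox6c-ps1 gave 0.41 (-1.01 to 1.80), with WPH 4 highest and WPH 2 lowest, and its probe set can share signal with other Cox6c copies.

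In complex V, AAM 3 was the highest array for 14 of 16 genes and AAM 1 the lowest for 13, and the standardized differences stayed within -0.44 to 0.40, closer to 0 than in any other complex. The mean z-score was -0.27, -0.30, 0.24 and 0.21 on WPH 1 to 4, against -1.29, 0.01, 1.69 and -0.29 on AAM 1 to 4. Atp5f1b, the catalytic beta subunit, had -0.535, 0.195, -0.0850 and -0.215 millionths on WPH 1 to 4, against -1.08, 0.395, 1.56 and -0.235 millionths on AAM 1 to 4. Its WPH arrays lay inside the AAM range, and the standardized difference was -0.39 (-1.78 to 1.03). The other subunits of the catalytic head and central stalk gave -0.06 for Atp5f1a, -0.05 for Atp5f1c, -0.01 for Atp5f1d and -0.11 for Atp5f1e. AAM 3 was the highest array for the first 3 of these, and AAM 4 for Atp5f1e. The membrane ring gene Atp5mc3 gave -0.12 with AAM 3 highest and AAM 1 lowest. The largest differences were 0.40 for Atp5mg and 0.17 for Atp5po, the stalk subunit that confers oligomycin sensitivity, and -0.44 for the peripheral stalk subunit Atp5pd and -0.22 for Atp5mk, beside those of Atp5me and Atp5f1b given above. A dimmer probe set of Atp5po gave -0.2, of the opposite sign.

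**Figure D4:**
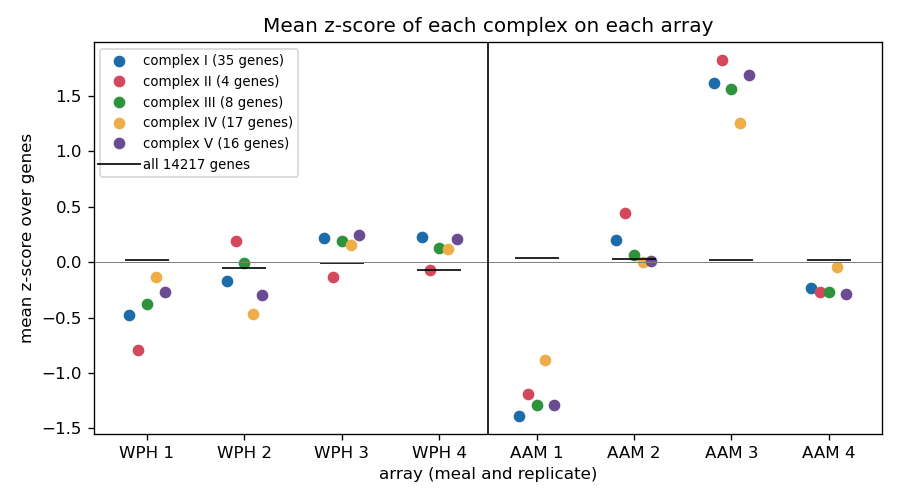
Mean z-score over the genes of each complex (y axis, SD units over the 8 arrays) on each array, WPH left of AAM, beside all genes. In each of the 5 complexes AAM 3 is the highest array (1.25 to 1.82) and AAM 1 the lowest (-1.39 to -0.88) on the values as deposited, and the WPH arrays lie between them. Median centring ended this order for most single genes, and AAM 3 then lay above AAM 1 for 26 of the 80.

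Likeness among the genes was described by Pearson's r across the 8 arrays, which share the arrays and their scaling. The median r over the 3160 pairs of subunit genes was 0.69, and 95.5% of pairs were above 0. Over the 146 other genes at or above the median level of the members it was 0.0053, with 50.4% of pairs above 0. Within complexes the median r was 0.73 for complex I, 0.78 for complex II, 0.72 for complex III, 0.34 for complex IV and 0.78 for complex V. Over the 6 arrays other than AAM 1 and AAM 3 the median r was 0.23 over all pairs (64.2% above 0), and it was 0.33, 0.51, -0.011, 0.0075 and 0.24 for complexes I to V. The median r was thus lower in each complex once these 2 AAM arrays were left out.

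Against the mean z-score of the other members, 70 of 80 genes had an r at or above 0.5 and 50 at or above 0.8. Ndufv1, Atp5f1c and Ndufa6 had the largest, 0.99 each. The 10 genes below 0.5 were Uqcrfs1 (0.09), Cox6b2 (0.13), Cox6c-ps1 (0.16), Atp5if1 (0.18), Cox5a (0.23), Cox7a2l (0.31), Cox4i2 (0.32), Cox7a1 (0.32), Atp5f1e (0.35) and Cox7b2 (0.49). They include 7 of the 17 complex IV genes, 2 of 16 of complex V, 1 of 8 of complex III and 0 of complexes I and II. Of these 10, 3 (Cox4i2, Cox6b2 and Cox7b2) were among the 4 members whose mean level was below the median of all probe sets. Atp5if1 encodes the inhibitor that stops ATP synthase from running backwards, and had 18.9, -59.2, -64.7 and 69.7 millionths on WPH 1 to 4, against 57.6, -140, 109 and 8.01 millionths on AAM 1 to 4. AAM 3 was highest and AAM 2 lowest, and its 3 probe sets gave standardized differences of -0.20, 0.27 and -0.04. Over the 9 probe sets of members that did not represent their gene, AAM 3 was above AAM 1 in 8, but AAM 3 was the highest array in only 2 and AAM 1 the lowest in 3.

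Genes that build the complexes without being part of them showed a similar order at AAM 1 and AAM 3. Of 62 listed assembly factors 56 were measured. AAM 3 was the highest array for 37 (66.1%, against 18.6% of all genes). AAM 1 was the lowest for 28 (50.0%, against 15.6%), and AAM 3 was above AAM 1 for 50 (89.3%, against 49.6%). WPH 4 was the lowest for 16 (28.6%), against 6 of the 80 subunit genes (7.5%). This order was not recomputed under median centring. The mean z-score of the assembly factors was -0.21, -0.20, 0.02 and -0.44 on WPH 1 to 4, against -0.83, 0.41, 1.17 and 0.07 on AAM 1 to 4. Between the meals 13 were higher and 43 lower after WPH, with a median standardized difference of -0.41, against -0.058 over all genes. These counts were not recomputed with AAM 3, the array of highest mean z-score, or any other array left out. At an unadjusted limma p below 0.05, 0 of 56 were higher (1.71% of all probe sets) and 2 of 56 were lower (1.86% of all probe sets). After adjustment 0 of 56 passed. The 2 were Uqcc4 (-2.25, limma p 0.0142), listed with complex III, and Tmem186 (-2.05, limma p 0.0219), listed with complex I, each with an adjusted p of 1.0. The smallest p in the other assembly lists belonged to Sdhaf3 (-1.46), Cox18 (-1.42) and Fmc1 (-1.19).

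Of 20 genes of mitochondrial mass and import 18 were measured, 3 higher and 15 lower after WPH, with a median of -0.42. Their mean z-score was -0.25, 0.05, -0.03 and -0.66 on WPH 1 to 4, against -0.76, 0.44, 1.32 and -0.11 on AAM 1 to 4. AAM 3 was again the highest array, and the counts were not recomputed with any array left out. Hspe1, a mitochondrial chaperone, had the smallest p (standardized difference -2.07, limma p 0.0200, adjusted p 1.0). Fibre type markers did not share this array order. The 11 fast fibre markers measured of 12 had a mean z-score from -0.27 to 1.05 on the WPH arrays and from -0.75 to -0.01 on the AAM arrays, with AAM 3 the lowest and WPH 4 the highest, and 9 were higher and 2 lower after WPH (median 0.62, smallest p for Pvalb, 1.41). The 9 slow fibre markers measured of 10 ran from -1.17 to 0.86 after WPH and from -0.44 to 0.81 after AAM, with 0.01 on AAM 1 and 0.07 on AAM 3, and 2 were higher and 7 lower (median -0.43, smallest p for Csrp3, 1.15). The median range over the arrays was 4.7 millionths for the fast and 14100 millionths for the slow fibre markers.

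AAM 3 stood high in further lists. The interferon response genes, 11 measured of 12, had mean z-scores of -0.23, -0.01, -0.43 and 0.01 on WPH 1 to 4. On AAM 1 to 4 they were -0.62, -0.44, 2.08 and -0.36, so AAM 3 alone of the AAM arrays was positive. After WPH 1 gene was higher and 10 were lower (median -0.35), counts that were not recomputed without AAM 3. The median range of these genes over the arrays was 120000 millionths, against 22.0 millionths for the subunit genes. Under an unadjusted limma p of 0.05 there was 1 of 11 in each direction, against 1.71% of all probe sets higher and 1.86% lower. Irf1, the gene that was higher, had the smallest p (1.95, limma p 0.0256, adjusted p 1.0). Erythrocyte markers, 5 measured of 9, had -0.74, 0.20, 1.14 and -0.66 on WPH 1 to 4, against -0.57, 0.20, 1.20 and -0.77 on AAM 1 to 4. Their values were thus close on same-numbered arrays (2 higher and 3 lower after WPH, median -0.026, smallest p for Hbb, -0.28). Endothelial markers, 9 of 10, ran from -0.14 to 0.74 after WPH and from -1.14 to 0.74 after AAM, with 0.74 on AAM 3 and -0.10 on AAM 1 (7 higher and 2 lower, median 0.34, smallest p for Tie1, 1.17).

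AAM 1 was not the lowest array for the erythrocyte and endothelial markers, whose lowest arrays were AAM 4 and AAM 2. The remaining marker lists had neither AAM 1 lowest nor AAM 3 highest. Adipocyte markers, 9 of 10, had mean z-scores from -0.65 to 0.50 on the WPH arrays and from -0.88 to 0.87 on the AAM arrays, with AAM 1 the highest. Of these 2 were higher and 7 lower after WPH (median -0.35), and the smallest p was that of Car3 (0.80), 1 of the 2 higher. Macrophage markers, 10 of 10, ran from -0.97 to 0.86 on the WPH arrays and from -0.97 to 0.93 on the AAM arrays, again with AAM 1 the highest (6 higher and 4 lower, median 0.097, smallest p for Adgre1, 0.85). Fibroblast and matrix markers, 10 of 10, ran from -1.0 to 1.54 on the WPH arrays, with WPH 4 the highest, and from -0.67 to 0.50 on the AAM arrays (8 higher and 2 lower, median 0.26, smallest p for Col6a1, 0.83). Skin and epithelium markers, 9 of 10, ran from -0.40 to -0.11 on the WPH arrays and from 0.13 to 0.39 on the AAM arrays (2 higher and 7 lower, median -0.38, smallest p for Epcam, -1.66). Only 3 of these 9 had a mean level at or above the median of all probe sets. Schwann cell and nerve markers, 7 of 9, ran from -0.56 to 0.16 on the WPH arrays and from -0.37 to 1.17 on the AAM arrays. Of these 4 were higher and 3 lower after WPH (median 0.039), and Mag had the smallest p (-1.87, limma p 0.0336, adjusted p 1.0). The part of these lists in the array pattern of the subunit genes was not tested. In whole muscle, more cells or fibres rich in mitochondria and more of these mRNAs per fibre cannot be told apart. Nor can either be told apart from a difference in array scaling, as the normalization is not stated.

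**Figure D5:**
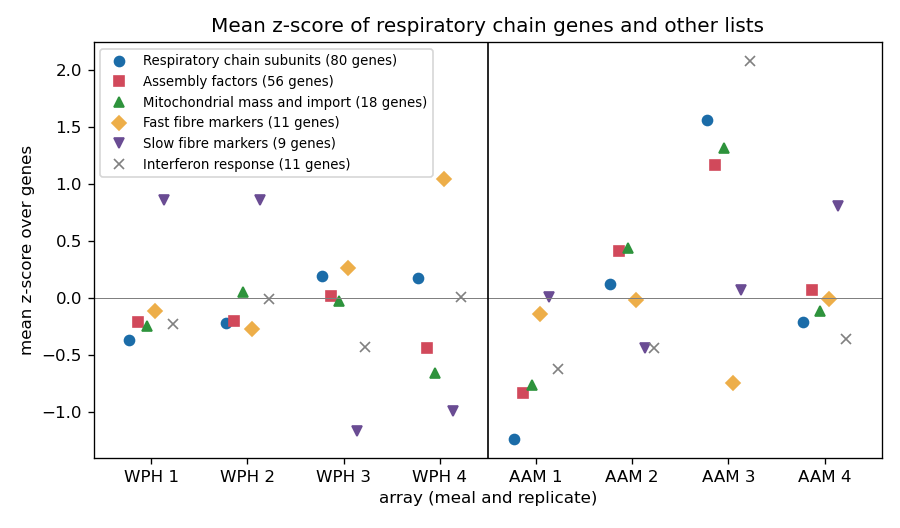
Mean z-score (SD units over the 8 arrays) on each array, WPH left of AAM, for the subunit genes and the lists set beside them. The subunit genes, assembly factors and mitochondrial mass genes are highest on AAM 3 (1.56, 1.17 and 1.32) and lowest on AAM 1 (-1.24, -0.83 and -0.76) as deposited, and the fast fibre markers are lowest on AAM 3 (-0.75).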

How the data were processed

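RNA was labelled from 100 ng of total RNA and hybridised to 1 array per rat, per the labels' protocols. The deposited values are on a log2 scale as judged from their range. The submitters' processing notes name R 2.7.2. How the authors corrected, normalized and summarised the probes, and the log base, is not stated in any source used here, so scale and centring stay unknown. Of 31099 probe sets, 57 controls were left out and 31042 were tested. Of these, 20826 had 1 symbol in the platform annotation, 436 had several and 9780 were unnamed here. All 89 member probe sets matched a gene ID of the GRCr8 table, and 0 symbols differed.

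Groups came from the treatment labels. WPH was compared with AAM with limma 3.58.1 under R 4.3.3, two-sided, by lmFit and eBayes with 0.549 prior degrees of freedom and Benjamini-Hochberg adjustment over all tested probe sets and a threshold of 0.05. Single genes also have an exact permutation test over 35 splits. Intervals of 95% come from the noncentral t distribution and ignore that genes were picked. The procedure was tested on simulated independent normal values, with shifts of 6 and 12 SDs within groups. Of 100 probe sets shifted by each, 82 and 98 were recovered, and 13 unshifted probe sets were called. No smaller shift was simulated, so this says nothing of power at the standardized differences of the members. Complexes and gene lists are described by counts, medians and mean z-scores, with no test. Counts over the gene lists other than the members were not recomputed with arrays left out. The members and lists were chosen with earlier results of these data known. Named genes are all of complex II, the 3 largest moderated t each way in the other complexes, isoform sets, catalytic cores, members with an unadjusted p below 0.05 or groups that did not overlap, and the smallest p of each other list. Alternatives were quantile normalization, median centring, the probe sets at or above the median level, a block for the replicate number, array weights, a trended robust prior, all probe sets of a gene, a fourth-root scale (constant 0.01), a threshold of 0.1, and leaving out arrays. The labels name biological replicates. Same-numbered arrays of the groups were not treated as paired in the main test. The correlations of their deviations over all probe sets were 0.17, 0.14, 0.067 and -0.078. These values cannot show whether same-numbered rats shared a barrel or a batch, which the sources do not give.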

Additional observations from a re-analysis of the deposited data

Results flagged for a closer look

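For the 52 named genes and the scores of the complexes, each group of 4 arrays was checked for a single array far from the other 3. Of 116 groups checked 2 stood out, where 5.8 would by chance. For Cox8a, a subunit of cytochrome c oxidase, WPH 4 was at 27.4 millionths while the other WPH arrays were between -33.3 and -23.6, a gap of 0.84 of the range of the group. For Ndufa5, an accessory subunit of complex I, WPH 2 was at 2.95 millionths while the other WPH arrays were between -5.26 and -4.20, a gap of 0.871 of the range.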

How the results depend on the processing

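No probe set was called at an adjusted p below 0.05 in any setting run, nor at 0.1. The members under an unadjusted 0.05 numbered 3 as reported, 0 under median centring, 1 without both AAM 1 and AAM 3, and 1 to 3 when 1 array was left out (1 without AAM 2 or AAM 3). With the replicate number as a block (replicate block) 0 were called, 28 genes were higher and 3 were under 0.05, so it changed no call, and Cox5a had 2.13. Of the genes higher after WPH, median centring left 10 of 80 in all, 7 in complex I, 1 in complex III, 2 in complex IV and 0 in complex V. Quantile normalization left 8 of 19 in all, 4 of 9 in complex I, 3 of 8 in complex IV and 1 of 2 in complex V, and no gene of complexes II and III that varied, because a probe set whose rank is the same on all arrays then has 1 value. Array weights (0.608 for AAM 3, the lowest) gave 8 in complex IV and 9 in complex V. Without both AAM 1 and AAM 3 there were 10 in complex IV and 11 in complex V. Leaving out 1 array gave 8 to 65 in all, 4 to 30 in complex I, 0 to 3 in complex II, 1 to 7 in complex III, 3 to 10 in complex IV and 0 to 15 in complex V. The lowest came without AAM 1 and the highest without AAM 3 in complexes I, III, IV and V. Counts also moved by over 1.5 times without WPH 1 (46 in all, 2 in complex II, 7 in complex III, 10 in complex V), WPH 2 (8 in complexes IV and V), AAM 2 (1 in complex II, 8 in complex V) and AAM 4 (2 in complex III). The mean z-score difference, WPH minus AAM, was -0.11 and ran from -0.6 to 0.49 over these, -0.66 to 0.5 in complex I, -0.92 to 0.24 in complex II, -0.53 to 0.61 in complex III, -0.48 to 0.28 in complex IV and -0.57 to 0.67 in complex V. Of 840 standardized differences of named genes recomputed, 822 moved by less than 1 and 18 by more. The cause of the other moves was not tested. Centring on the median deviation of all probe sets, added after the data were seen, moved the arrays by -0.131 to 0.111 millionths and so could change little (30 of 80 genes higher). With 4 arrays per group, even the standardized difference of 2.5 for Cox5a did not pass the adjusted test.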

Other observations

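The 9 probe sets of these families that carried several symbols, and so name no gene, followed the array order of the members only in part. AAM 3 was above AAM 1 in 9 of 9 and was the highest array in 7, but AAM 1 was the lowest in 3, and both ends held in 2. After WPH 2 were higher and 7 lower, and their standardized differences ran from -0.91 to 0.28.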
